A study of Homo sapiens with 8 samples.

Results

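The HOX genes encode homeodomain transcription factors that give cells along the head-to-tail axis their regional identity. In the human genome they lie in 4 clusters, HOXA to HOXD, each on its own chromosome, and genes with the same number in different clusters are paralogues. Within a cluster the numbers run from 1 at the 3′ end to 13 at the 5′ end, and neighbouring genes tend to be switched on together. Polycomb proteins keep unused HOX genes silent, whereas proteins of the trithorax and MLL group hold used ones active, and both kinds of state are passed on through cell division. Neuroblastoma arises from sympathetic precursors of the neural crest, in which the HOX genes in use reflect the level of the trunk.

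The genes described here were all those in the count table whose name is HOX, a cluster letter from A to D and a number. They were 39 of the 56303 genes of the table, with 11 in HOXA (GRCh38 chr7:27092993-27200106), 10 in HOXB (chr17:48528526-48729178), 9 in HOXC (chr12:53938765-54056030) and 9 in HOXD (chr2:176092891-176190907). A gene with under 10 counts in any input library is called low, which left 12 genes that are described by their values and 27 that were low.

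MeRIP-seq was carried out on SK-N-BE(2), an established human neuroblastoma cell line with many copies of the oncogene MYCN. The cells carried either a control shRNA (shNC) or an shRNA against METTL14 (shMETTL14), the partner subunit of the enzyme that writes N6-methyladenosine (m6A) on messenger RNA, and no other agent or allele was named for either arm. Each arm had 2 numbered cultures, and each culture gave a library of antibody-bound fragments (IP) and a library of fragments kept before the antibody (input), so there were 8 libraries in all. The study's methods describe stable lines selected with puromycin after transfer of an shRNA vector. The labels do not say whether the shMETTL14 cultures carried the same or different shRNA sequences or whether cultures were grown apart, so the p-values measure only the spread between these samples.

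Total counts ran from 32027379 to 47205265 per library. METTL14 itself counted 1771 and 1759 reads in the control inputs against 580 and 612 after knockdown, and its level fell by 1.79 on the log2 scale (SE 0.0663, edgeR adjusted p = 1.28e-15, n = 2 and 2). The defining genes of the adrenergic neuroblastoma state were present, with 152364 to 182675 counts of MYCN and 35629 to 46597 of HAND2 in the inputs, whereas the glial gene SOX10 had 5 to 13 counts. Markers moved with the knockdown. Of 12 adrenergic markers 7 rose and none fell (TH by 1.03, DBH by 0.84 and CHGA by 0.58 on the log2 scale), and of 8 mesenchymal markers 2 rose (FOSL1 by 0.51 and PRRX1, which had 6 to 32 input counts and was named after its value was seen, by 1.53) and 5 fell (among them SNAI2 by 0.57 and WWTR1 by 0.51). Over all genes tested 11.7% rose and 12.3% fell. The summed level of the adrenergic list was 6398 to 6638 CPM in shNC and 6772 to 6827 in shMETTL14, and that of the mesenchymal list 2240 to 2304 and 1852 to 1854. Single genes made up most of these sums. MYCN had a mean of 4338 CPM in the shNC inputs and 4293 in the shMETTL14 inputs, and the mesenchymal marker VIM had 1947 and 1571. Of 4 fibroblast genes DCN and LUM rose and COL1A1 fell, and their sum was 129.1 to 130.2 CPM and 136.1 to 140.1. In bulk samples fewer cells of a type and less RNA per cell cannot be told apart, and the part of these shifts in the HOX values below was not tested.

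HOXC and HOXD were transcribed in these cells, and HOXA and HOXB were at the limit of detection. The 11 HOXA genes had together 16 counts in the 8 libraries, and the 10 HOXB genes had 21. No single HOXA or HOXB gene exceeded 4 counts in any library, and 6 HOXA and 5 HOXB genes had none in any of them. The HOXC genes had 43754 counts and the HOXD genes 11272 over the same libraries. Levels are given as CPM, counts scaled by total and TMM factor, and in these units the HOXC genes summed to 107.3 ± 3.6 CPM (SD, n = 2) in the shNC inputs and the HOXD genes to 32.7 ± 0.445. A gene with 0 counts could still be present below 3 fragments. Since both mates of a fragment may have been counted, this floor was set at 6 counts per library, which is 0.142 to 0.168 CPM in the inputs, and it covers counting error only.

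By the cutoff of 10 counts, the line between used and unused genes fell at the same place in both active clusters. All 6 HOXC genes from position 4 to 10 and all 6 HOXD genes from position 1 to 10 had at least 10 counts in every input, and all genes at positions 11 to 13 of the 4 clusters were low. HOXC11 had 8 and 14 counts in the shNC inputs and 11 and 8 in the shMETTL14 inputs. Its neighbour HOXC10 had 222, 191, 224 and 240 in the same order. HOXD11 had 0, 6, 7 and 7 counts against 50, 45, 55 and 60 for HOXD10, and both share 452 exon bases. HOXC12, HOXC13 and HOXD12 had no counts in the inputs, and HOXD13 had 2 in 1 of them. The drop from position 10 to 11 was thus present in each of the 4 input libraries, in control and in knockdown cells alike. The fall began before it. Per kilobase of gene length, the mean shNC input level was 2.94 CPM for HOXD9, 0.492 for HOXD10 and 0.0394 for HOXD11. For HOXC9, HOXC10 and HOXC11 it was 8.14, 2.47 and 0.0937.

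**Figure D1:**
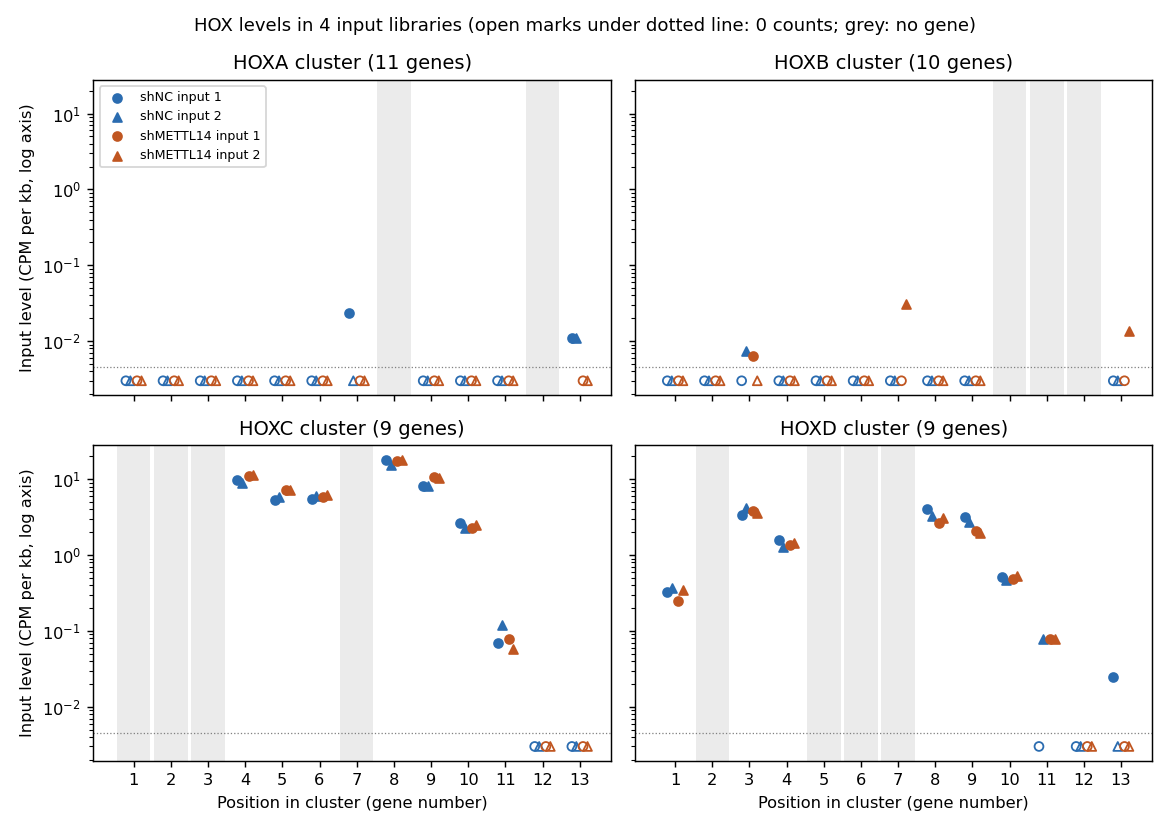
Input level of all 39 HOX genes by cluster and position, in CPM per kilobase of gene length on a log axis, with 1 mark for each of the 4 input libraries. Filled marks are measured levels, open marks under the dotted line are 0 counts, and grey bands are positions at which the cluster has no gene. HOXC and HOXD carry levels up to position 10 and drop at 11, while HOXA and HOXB stay at the bottom.

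Levels of different genes were compared per kilobase of the length given in the table. HOXC8, which helps to pattern the thoracic skeleton and motor neurons, was the highest in every input library, with 17.8 and 15.5 CPM per kb in shNC and 17.4 and 18.1 in shMETTL14. HOXC4 followed with 9.81 and 9.0 in shNC and 11.15 and 11.26 in shMETTL14. HOXC9, a regulator of thoracic identity in motor neurons, came after it with 8.20 and 8.09 in shNC and 10.7 and 10.4 in shMETTL14. These 3 genes did not overlap one another in the shNC inputs. HOXC6 (5.77 ± 0.275, SD, n = 2) and HOXC5 (5.58 ± 0.346) came next in shNC, and their values overlapped, as did those of HOXD3 (3.76 ± 0.52) and HOXD8 (3.67 ± 0.518). HOXD9 (2.94 ± 0.345), HOXC10 (2.47 ± 0.278), HOXD4 (1.42 ± 0.211), HOXD10 (0.492 ± 0.0397) and HOXD1 (0.345 ± 0.0277) followed in that order without overlap between neighbours. Against all 22245 genes tested, HOXC8 stood at the 87.2 percentile of level per length, HOXD8 at the 53.2 and HOXD1 at the 12.7.

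The paralogues of these genes in the silent clusters gave a lower bound on the difference. HOXB8 had 0 counts in every input, so HOXC8 was at least 204-fold higher per length in shNC, with 6 counts per library as the floor for HOXB8. In the same way HOXC9 was at least 148-fold above HOXA9 and at least 126-fold above HOXB9. HOXC4 was at least 98.4-fold above HOXA4 and at least 212-fold above HOXB4. HOXC6 was at least 44.4-fold above HOXA6, and HOXD3 was at least 96.8-fold above HOXA3. HOXC8 shares no exon bases with another gene. For HOXC9, HOXC4, HOXC6 and HOXD3 the bound holds only if the reads on shared exon bases are their own. This matters most for HOXD3, which shares 62.2% of its exon bases with the transcript AC009336.19 on the same strand.

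The 250 bases before the RefSeq start site are shown for 3 genes of paralogue group 4 and for the pair at the edge of the active part of HOXD. They are examples of used and unused genes that are near in kind or in position, and other paralogue groups also had windows of both. The sequences are from RefSeq on GRCh38.p14, 5′ to 3′ on the strand of the gene, with each CG dinucleotide in capitals. The count table starts HOXC4, HOXD4, HOXA4, HOXD10 and HOXD11 at other bases than these windows imply, and a gene can have further start sites.
HOXC4, chr12:54016638-54016887 (+): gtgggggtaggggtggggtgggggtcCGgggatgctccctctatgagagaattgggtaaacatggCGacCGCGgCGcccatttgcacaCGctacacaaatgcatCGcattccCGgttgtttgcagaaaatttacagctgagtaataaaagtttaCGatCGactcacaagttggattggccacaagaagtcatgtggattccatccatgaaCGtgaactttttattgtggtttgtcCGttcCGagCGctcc
HOXD4, chr2:176151300-176151549 (+): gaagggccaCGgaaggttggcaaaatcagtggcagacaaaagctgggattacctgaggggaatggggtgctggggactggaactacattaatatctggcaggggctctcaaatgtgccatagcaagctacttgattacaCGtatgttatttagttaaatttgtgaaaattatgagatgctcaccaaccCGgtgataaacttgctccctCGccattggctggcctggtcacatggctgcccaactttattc
HOXA4, chr7:27130758-27131007 (-): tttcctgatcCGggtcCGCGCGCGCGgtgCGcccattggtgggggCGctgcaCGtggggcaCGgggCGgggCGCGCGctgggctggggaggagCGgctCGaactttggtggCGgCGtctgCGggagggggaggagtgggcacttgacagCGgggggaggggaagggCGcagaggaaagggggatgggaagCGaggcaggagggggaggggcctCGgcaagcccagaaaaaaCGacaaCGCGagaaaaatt
HOXD10, chr2:176116528-176116777 (+): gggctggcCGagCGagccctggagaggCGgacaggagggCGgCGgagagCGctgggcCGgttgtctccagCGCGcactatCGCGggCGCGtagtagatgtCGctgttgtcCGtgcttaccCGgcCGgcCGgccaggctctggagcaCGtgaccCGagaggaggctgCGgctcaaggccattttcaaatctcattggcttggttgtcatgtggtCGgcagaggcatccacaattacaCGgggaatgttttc
HOXD11, chr2:176107030-176107279 (+): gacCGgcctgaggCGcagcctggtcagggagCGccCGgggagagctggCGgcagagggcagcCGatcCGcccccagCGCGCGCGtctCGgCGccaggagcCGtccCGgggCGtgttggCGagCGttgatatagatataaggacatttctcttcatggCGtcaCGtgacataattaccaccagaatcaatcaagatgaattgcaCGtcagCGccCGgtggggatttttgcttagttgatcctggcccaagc
HOXC4 and HOXD4, which were not low, held 14 and 4 CG, and HOXA4, which had no counts in any library, held 26. At least as many were found in 44.8%, 70.7% and 19.6% of all 35116 windows. The transcript AC009336.19 shares 80.5% of the exon bases of HOXD4 on the same strand, so reads counted for HOXD4 may belong to that transcript. HOXD10, which was on, and HOXD11, which was low, held 23 each, a number reached by 25.8% of windows. The low paralogue HOXA10 held 24 and 19 in its windows. In paralogue group 3 HOXD3 held 21 and the low HOXA3 0 to 26, and in group 1 HOXD1 held 31 and the low HOXB1 7. CG was counted on the printed strand, and it reads the same on both. Windows were found for 20 of the 39 HOX genes. The 20 windows of the 13 low genes held a median of 19 CG (0 to 40), the 7 windows of the 7 other genes a median of 21 (4 to 31), and all windows a median of 11. HOXC4 and HOXC5 share 1 window. HOXA3 gave several of the windows of low genes, and HOXB1 was the only HOXB gene with a window. None was found for HOXC6, HOXC8, HOXC9, HOXC10 or HOXD9, so the medians do not compare all used with all unused HOX genes.

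Several HOX genes share exon bases with other genes, so that reads on the shared part cannot be given to one of them. HOXC8, HOXD8 and HOXD9 shared none, and the other 9 of the 12 did. HOXC6 and HOXC4 have 484 bases in common, and HOXC6 and HOXC9 have 73. HOXC5 shares 1081 and 611 of its 1805 bases with the transcripts RP11-834C11.14 and RP11-834C11.12, which run through this part of HOXC on the same strand. HOXD3 and HOXD4 share 2206 and 1178 bases with AC009336.19, whose counts (413 to 567 in the inputs) were close to those of HOXD3 (430 to 570). HOXD1 shares 989 of its 1975 bases with the antisense transcript RP11-387A1.6, which had 4 to 19 input counts, and 145 with the antisense RNA HAGLR. Since the strand setting of the counting is not given in the sources used here, reads of an antisense pair cannot be told apart either.

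The first comparison asked which HOX transcripts changed in level after METTL14 knockdown, in the input libraries. HOXC4, HOXC5 and HOXC9 rose, HOXD8 and HOXD9 fell, and the other 7 of the 12 did not pass the test. The 3 that rose lie in HOXC and the 2 that fell in HOXD. Of all 22245 genes tested 11.7% rose and 12.3% fell, and the counts of HOX genes called, 3 and 2 of 12, are read against that background.

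HOXC9 had 13.8 and 13.6 CPM in the shNC inputs and 17.9 and 17.4 in the shMETTL14 inputs. The arms did not overlap, and the fold change was 1.30 (log2 0.38, SE 0.0833, edgeR adjusted p = 0.00139, n = 2 and 2). HOXC5, whose paralogue group acts in motor neurons of the neck, had 9.62 and 10.5 CPM in shNC and 12.9 and 13.1 in shMETTL14, again without overlap, with a fold change of 1.30 (log2 0.38, SE 0.0972, adjusted p = 0.00542). The transcripts that share parts of its exons had log2 changes of 0.32 (RP11-834C11.14, adjusted p = 0.0567) and 0.21 (RP11-834C11.12, adjusted p = 0.337). HOXC4, which is also active in lymphocytes, had 26.7 and 24.5 CPM in shNC and 30.4 and 30.7 in shMETTL14, a fold change of 1.20 (log2 0.26, SE 0.0669, adjusted p = 0.00547). HOXC4 shares 305 of its 2725 exon bases with RP11-834C11.14 and 484 with HOXC6. Reads of RP11-834C11.14 may therefore count for both HOXC4 and HOXC5, and the 2 rises may not be separate.

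HOXD9, which patterns the lumbosacral spine and the limb together with its paralogues, had 5.96 and 5.05 CPM in the shNC inputs and 3.94 and 3.64 in the shMETTL14 inputs. Both knockdown values lay below both controls, with a fold of 0.692 (log2 -0.53, SE 0.15, adjusted p = 0.0104). Its neighbour HOXD8 had 10.6 and 8.68 CPM in shNC and 7.03 and 8.21 in shMETTL14, so that the nearest values of the arms were close, with a fold of 0.794 (log2 -0.33, SE 0.121, adjusted p = 0.0485). HOXD8 also had less in the antibody-bound libraries, with 20.5 and 20.4 CPM in the shNC IPs and 15.3 and 14.6 in the shMETTL14 IPs. In a fit of the IP libraries alone this was a log2 change of -0.46 (adjusted p = 5.37e-05), the only one of the 12 past the threshold there. HOXD9 had 5.25 and 4.47 CPM in the shNC IPs and 4.64 and 3.18 in the shMETTL14 IPs, which overlapped.

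The 7 genes that did not pass had log2 changes from -0.19 (HOXD1, SE 0.41, 21 to 29 counts per input) to 0.10 (HOXC8, SE 0.067, adjusted p = 0.313). HOXC8, the highest of the family, had 33.5 and 29.3 CPM in shNC and 32.9 and 34.2 in shMETTL14, and the arms overlapped. HOXC6, HOXC10, HOXD3, HOXD4 and HOXD10 lay between -0.05 and 0.08. The median log2 change was 0.0188 over the 12 genes and 0.00236 over all genes tested.

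The balance of the active clusters moved with the arms. Summed over its 9 genes, HOXC had 3.33 and 3.24 times the CPM of HOXD in the shNC inputs and 4.25 and 4.26 times in the shMETTL14 inputs. In the IP libraries the ratios were 3.67 and 3.65 in shNC and 4.22 and 4.46 in shMETTL14. The sum of HOXC went from 107.3 ± 3.6 to 122 ± 2.05 CPM in the inputs (SD, n = 2), and that of HOXD went from 32.7 ± 0.445 to 28.7 ± 0.423. The 4 knockdown ratios were above the 4 control ratios, but with 2 against 2 cultures the smallest two-sided exact permutation p is 0.333, so these are given as values with no test, and bases shared between members count more than once in the sums.

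**Figure D2:**
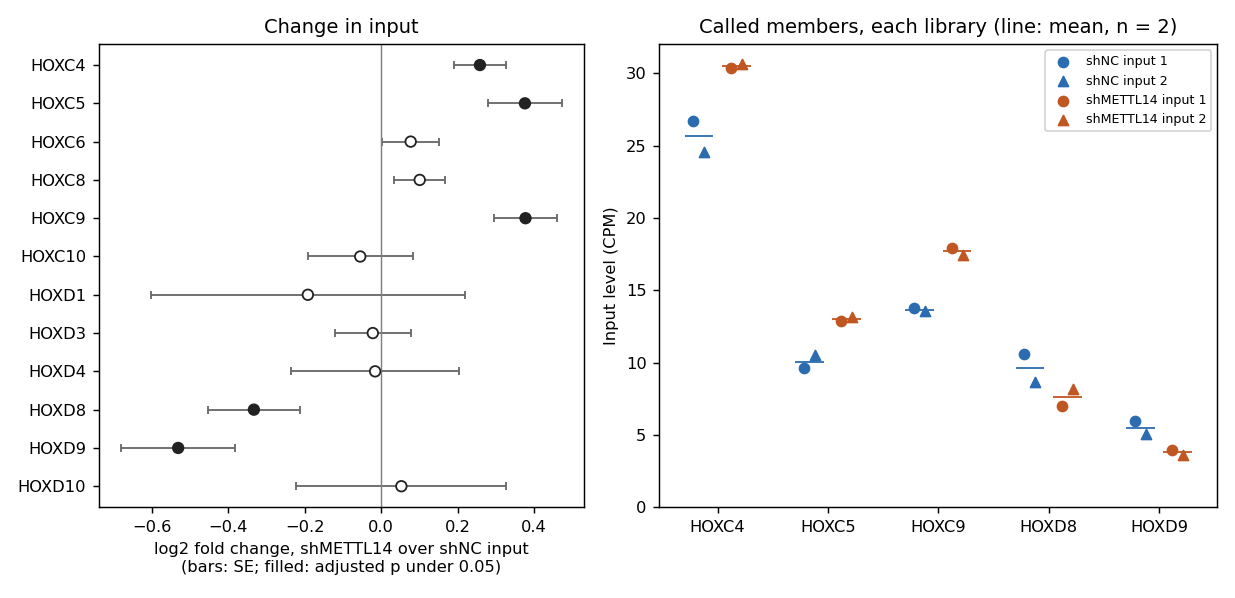
Left, log2 fold change of shMETTL14 over shNC input for the 12 HOX genes that were not low, with SE bars and filled points at an adjusted p under 0.05. Right, the level of the 5 called genes in CPM in each input library, with the mean of each arm as a line (n = 2). HOXC4, HOXC5 and HOXC9 lie higher and HOXD8 and HOXD9 lower in the shMETTL14 libraries.

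The changes were small, and each of the 5 calls was lost in at least 1 fit with a culture left out. Such a fit has 1 culture in an arm, so a lost call does not by itself show that the change rested on that culture. Across these fits the log2 change ran from 0.36 to 0.39 for HOXC9, 0.31 to 0.44 for HOXC5 and 0.20 to 0.32 for HOXC4. It ran from -0.47 to -0.18 for HOXD8 and -0.65 to -0.41 for HOXD9. With shMETTL14 culture 2 left out none of the 5 passed (HOXC9 adjusted p = 0.063, HOXC5 0.13, HOXC4 0.149, HOXD8 0.158, HOXD9 0.171). With shMETTL14 culture 1 left out HOXC9 alone did (0.0427), with shNC culture 1 left out HOXC9 (0.0131) and HOXC4 (0.00735) did, and with shNC culture 2 left out all but HOXC4 (0.0667). With DESeq2 the adjusted p was 0.149 for HOXD8 and 0.0558 for HOXD9, and with no filter on low counts HOXC9 alone passed. The 5 directions were the same in every alternative in which the gene was fitted.

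The clusters also hold noncoding RNAs, and some border the genes above. Of 35 such RNAs and flanking genes found in the table, 12 were tested, 1 rose and 3 fell (median log2 change -0.19), beside 11.7% and 12.3% of all genes, and 16 had no counts in any input. HAGLR, an antisense RNA at the 3′ end of HOXD next to HOXD1, counted 657 and 671 reads in the control inputs against 559 and 465 after knockdown, and fell by 0.60 on the log2 scale (SE 0.0914, adjusted p = 2.31e-05). It was therefore lower in both knockdown inputs, like HOXD8 and HOXD9 at the other side of HOXD3. HOXD-AS2, antisense to HOXD3, had 101, 92, 77 and 89 counts in the same order (adjusted p = 0.134). Its overlap partner HOXD3 had a log2 change of -0.02 (SE 0.0994). HOXC-AS2, antisense to HOXC9, had 27, 32, 42 and 41 counts (adjusted p = 0.643). It shares 163 exon bases with HOXC9 and 73 with HOXC6, so some of these reads may belong to those genes. The flanking genes CALCOCO1, an autophagy receptor beside HOXC, rose by 0.43 and LNPK, a shaper of the endoplasmic reticulum beside HOXD (KIAA1715 in the table), fell by 0.25. HOTAIR, a HOXC RNA known for work on the repression of HOXD and chosen here after its values were seen, had 60 and 54 counts in shNC and 48 and 53 in shMETTL14 (log2 -0.40, adjusted p = 0.332).

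HOX proteins bind DNA together with homeodomain proteins of the TALE class, foremost PBX and MEIS. Of 11 TALE genes, the PBX, MEIS, PKNOX and TGIF families, all were tested, and 3 rose and 0 fell: MEIS2 by 0.29 (SE 0.0421), MEIS1 by 0.26 (SE 0.0511) and PBX2 by 0.20 (SE 0.0511) on the log2 scale, each with an edgeR adjusted p under 0.05. Of 30 Polycomb genes 9 rose and 4 fell. PHF19, an accessory subunit that guides the H3K27 methyltransferase, fell by 0.57, whereas CBX8 and PCGF1, subunits of the ubiquitin ligase complex, rose by 0.43 and 0.36. Of 14 trithorax and MLL genes 6 rose and 0 fell, led by KDM6B, a demethylase that removes the Polycomb mark from H3K27, with 0.63 (SE 0.0422), and by the elongation factors MLLT1 with 0.37 and MLLT3 with 0.28. Of 19 genes of retinoic acid signalling, the CDX family and insulation, 11 were tested. The retinoic acid receptor RARA rose by 0.38, and CTCF, which insulates domains within HOX clusters, fell by 0.13. These counts are read against the 11.7% of all genes that rose and the 12.3% that fell. The median log2 changes of these 4 lists were 0.0158, 0.0951, 0.066 and 0.0655, beside 0.00236 for all genes tested.

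The second comparison asked how strongly each HOX transcript was bound by the m6A antibody, as the ratio of IP to input. The ratio is relative to the average gene of the same libraries, since each library was scaled to its own total, and it refers to whole genes, so the position of m6A within a transcript was not measured. In shNC 8 of the 12 genes were higher in the IP and 0 were lower, against 29.1% of all 22953 genes tested that were higher and 29.8% that were lower. In shMETTL14 8 were higher and 1 was lower, against 28.9% and 29.1%. The median log2 ratio of the 12 genes was 0.42 in shNC and 0.57 in shMETTL14, and that of all genes tested was -0.0142 and -0.00831.

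HOXC8, HOXD8 and HOXC9 had the highest ratios. HOXC8 was 1.90 and 2.39 times as high in the IP as in the input of the shNC cultures and 2.06 and 2.03 times in the shMETTL14 cultures. HOXD8 had 1.93 and 2.35 in shNC and 2.17 and 1.77 in shMETTL14. Neither HOXC8 nor HOXD8 shares exon bases with another gene. HOXC9 had 1.97 and 2.10 in shNC and 1.78 and 1.75 in shMETTL14. In log2 units the fitted ratios were 1.09 (SE 0.0596, edgeR adjusted p = 8.47e-22), 1.08 (SE 0.0991, adjusted p = 9.75e-14) and 1.02 (SE 0.0771, adjusted p = 1.29e-16) in shNC, for HOXC8, HOXD8 and HOXC9.

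HOXC6, HOXC10, HOXC4 and HOXD3 were higher in the IP in both arms too, at lower ratios. HOXC6 had a fitted log2 ratio of 0.63 in shNC and 0.69 in shMETTL14, HOXC10 one of 0.44 and 0.58, HOXC4 one of 0.39 and 0.29, and HOXD3 one of 0.39 and 0.58. The ratio of HOXC4 was 1.21 and 1.43 in the shNC cultures and 1.22 in both shMETTL14 cultures. HOXC10 missed the threshold in shNC with shNC culture 2 left out (adjusted p = 0.0681). HOXD9 passed in neither arm, although its neighbour HOXD8 was among the highest. Its ratio was 0.882 and 0.886 in the shNC cultures and 1.18 and 0.875 in the shMETTL14 cultures. HOXD1, with 10 to 34 counts per library, passed in neither arm.

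**Figure D3:**
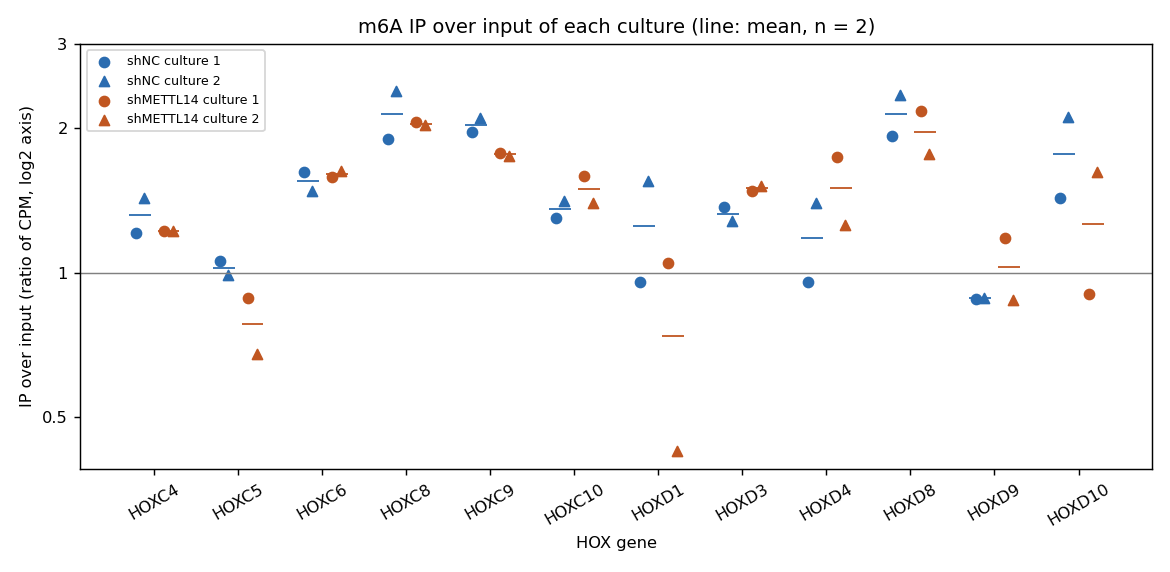
Ratio of IP to input CPM for the 12 HOX genes that were not low, on a log2 axis, with 1 mark per culture and the mean of each arm as a line (n = 2). HOXC8, HOXC9 and HOXD8 lie near 2 in both arms, HOXD9 lies near 1, HOXC5 lies near 1 in shNC and at 0.887 and 0.675 in shMETTL14, and HOXD1, HOXD4 and HOXD10 differ most between cultures of an arm.

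For 3 genes the call differed between the arms. HOXC5 had ratios of 1.06 and 0.988 in shNC and 0.887 and 0.675 in shMETTL14, and it was lower in the IP in shMETTL14 (log2 -0.36, SE 0.107, adjusted p = 0.00304) and not in shNC (log2 0.03, adjusted p = 0.819). Without shMETTL14 culture 2 that call was lost (log2 -0.17, adjusted p = 0.359). HOXD10 had 1.43 and 2.11 in shNC and 0.901 and 1.62 in shMETTL14, and passed in shNC alone (log2 0.79, SE 0.276, adjusted p = 0.0121). Without shNC culture 2 it did not (0.275). HOXD4 had 0.958 and 1.40 in shNC and 1.74 and 1.26 in shMETTL14, and passed in shMETTL14 alone (log2 0.57, SE 0.215, adjusted p = 0.0204), but not without shMETTL14 culture 1 (0.398) with DESeq2 (0.0635) or with library size only (0.0679). HOXD10 and HOXD4 overlapped between the arms, and HOXC5 did not.

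The third comparison asked whether these ratios differed between the arms, with the interaction of arm and library type. None of the 12 genes passed. Over all 22953 genes tested 0% were higher and 0.00436%, which is 1 gene, were lower. At an unadjusted p under 0.05 there was 1 of the 12, HOXC5, and 6.34% of all genes, and DESeq2 also called 0 of the 12. HOXC5 had a log2 change of the ratio of -0.39 (SE 0.153, unadjusted p = 0.0128, edgeR adjusted p = 0.679). HOXD10 had -0.42 (SE 0.394) and HOXD4 0.38 (SE 0.31). The 12 changes ran from -0.86 (HOXD1, SE 0.66) to that of HOXD4. For the genes with the highest ratios the change was -0.06 for HOXC8 (SE 0.0837), -0.12 for HOXD8 (SE 0.145) and -0.20 for HOXC9 (SE 0.107). A p that misses the threshold does not show that the arms were alike, and a loss of m6A shared by most genes would not be seen on this scale.

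**Figure D4:**
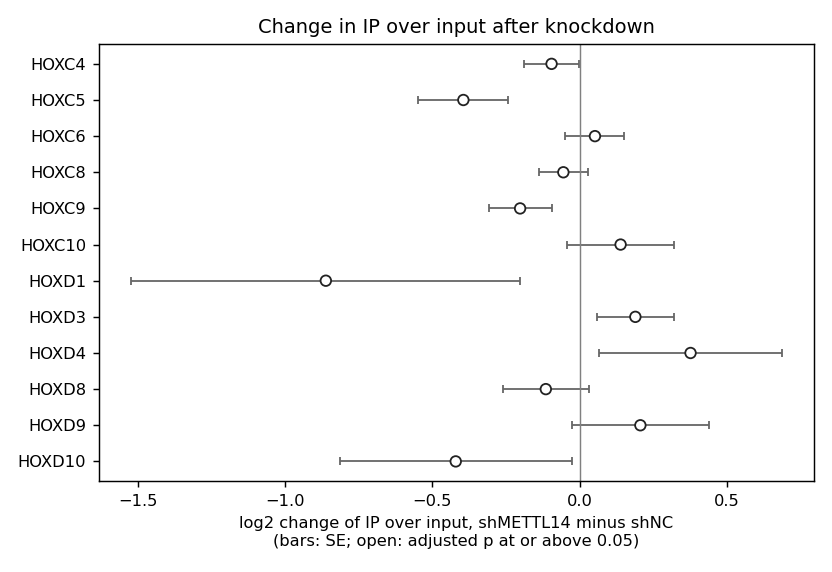
Change of the log2 ratio of IP to input from shNC to shMETTL14 for the 12 HOX genes that were not low, with SE bars. All points are open because none passed an adjusted p of 0.05, and the bars are longest for HOXD1, HOXD10 and HOXD4, the genes with the fewest counts.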

How the data were processed

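The authors deposited raw counts of reads per gene, without normalization, for 8 MeRIP-seq libraries of SK-N-BE(2) cells. Per the labels, poly(A) RNA was fragmented, 10% was kept as input and the rest was bound with an anti-m6A antibody, and the libraries were stranded, paired-end and carried molecular identifiers. The submitters' processing notes name Trimmomatic 0.36 and GRCh38. Neither aligner, counter, strand option nor duplicate removal is given in the sources used here. Of the counts from 1 to 10, 82.8% were even, so both mates of a pair may have been counted and counts are not independent molecules. Groups were taken from the sample titles.

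After filterByExpr and TMM scaling, counts were tested with the quasi-likelihood test of edgeR 4.0.16 in R 4.3.3, with Benjamini-Hochberg adjustment over all genes tested and a threshold of 0.05. Levels in the input were compared over 4 libraries (22245 genes tested). IP over input in each arm, and its change, used 8 libraries with 4 group means (22953 genes tested). An SE is the absolute log2 fold change over the square root of F. Total counts were 32027379 to 47205265, and the number of cultures, 2 per arm, limits the precision. Replicates differed by more than sampling noise (chi-square per gene of 2.43 to 3.99).

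By the protocol the IP and the input with 1 number are portions of 1 RNA, which pairs them. Across genes, the correlation of their deviations was 0.004 in shNC and 5.7e-05 in shMETTL14. All HOX genes that were not low were named, and values in each library were given for called genes, the 3 highest per length and those whose call differed between the arms. Up to 3 genes per list were named by size of change, among called genes averaging 50 counts or more, with the cluster RNAs that share exon bases with a named HOX gene. Of the list of glial markers SOX10 alone is reported here. The genes described and the lists were chosen with earlier results of these data known. Alternatives were DESeq2 1.42.0, other scaling and filters, a replicate block, other sets of libraries, genes with no exon overlap (bedtools 2.31.1), and leaving out each culture in turn.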

Additional observations from a re-analysis of the deposited data

How the results depend on the processing

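In the input comparison, 3 HOX genes higher and 2 lower became 1 and 0 with no filter on low counts, 0 and 2 among the 3 that share no exon base (HOXC8, HOXD8, HOXD9), 3 and 0 with DESeq2, and 3 and 1 with library size only. With 1 culture left out, which assumes that the lone culture of an arm varies like the others, the number higher ran from 0 to 2 and the number lower from 0 to 2. For IP over input, the genes with no exon overlap gave 2 higher in shNC and 2 higher and 0 lower in shMETTL14, out of 3. With 1 culture left out the number lower in shMETTL14 ran from 0 to 1. In the IP libraries alone 1 gene, HOXD8, was lower, against 0 for the change of IP over input. Some values that were not called changed sign. With 1 culture left out, the log2 input change ran from -0.17 to 0.063 for HOXC10, -0.46 to 0.031 for HOXD1, -0.16 to 0.13 for HOXD3, -0.16 to 0.14 for HOXD4 and -0.029 to 0.14 for HOXD10. The log2 IP over input in shNC ran from -0.0035 to 0.092 for HOXC5, -0.058 to 0.64 for HOXD1 and -0.056 to 0.50 for HOXD4, and in shMETTL14 from -1.22 to 0.072 for HOXD1, -0.19 to 0.24 for HOXD9 and -0.15 to 0.70 for HOXD10. Its change ran from -0.24 to 0.020 for HOXC4, -0.014 to 0.099 for HOXC6, -0.24 to 0.10 for HOXC8, -0.28 to 0.033 for HOXD8 and -0.028 to 0.40 for HOXD9. With library size only, HOXC5 in shNC was -0.096 and HOXD9 in shMETTL14 -0.082. The IP libraries alone, which measure the IP level and not its ratio, gave 0.16 for HOXC4, 0.038 for HOXC8, 0.17 for HOXC9 and -0.33 for HOXD9. The replicate block changed 0 of 48 calls, with 3 higher and 2 lower in the input comparison, 8 and 0 for IP over input in shNC, 8 and 1 in shMETTL14, and 0 and 0 for its change. In the shNC inputs the summed HOXC level was 107.3 CPM, 111.4 from library size only and 31.7 over its genes with no exon overlap, and that of HOXD was 32.7, 33.9 and 15.2. Of 516 values of the 12 genes under the alternatives, 462 kept their direction and side of the threshold, 26 kept the direction but were no longer called, 1 became called and 27 changed sign. The cause of these differences was not tested, except that the set without overlap holds fewer genes.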
